A study of Mus musculus with 12 samples.

Results

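Transcripts of 9 acentrosomal spindle assembly factors were followed in mouse oocytes with altered Dpagt1, the gene for the enzyme that starts protein N-glycosylation. The 9 genes were chosen by name, namely Aurka, Plk1, Tpx2, Bora, Tacc3, Ckap5, Kif11, Numa1 and Ran, out of 24255 genes with a value in the deposited expression table. All 9 were among the 11233 genes that reached 1 FPKM (fragments scaled to transcript length and to the mapped fragments of the library) in at least 1 library and were tested. Measured were 12 RNA-Seq libraries of 20 fully grown oocytes each, at the germinal vesicle (GV) stage before meiosis resumes, from 4 groups of 3 libraries. The oocytes came from C57BL/6 females at 3 weeks of age, 46 h after 5 IU of PMSG, a gonadotropin that stimulates follicle growth.

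The WT group is labelled wild type, with no altered Dpagt1 allele named. The MUT group was homozygous for D166G, a chemically induced recessive missense mutation present in the whole body. The GcKO group was Dpagt1F/F Gdf9CRE/+, in which a Cre recombinase driven by the oocyte gene Gdf9 deletes the floxed allele in oocytes of primordial and later follicles. The AmcKO group was Dpagt1F/F Amhr2CRE/+, in which Cre is driven by Amhr2, a gene of granulosa cells, so the oocyte itself keeps the floxed gene. The label of WT names neither the floxed allele nor Cre, and does not say whether either was present. The WT libraries are numbered 4 to 6 like those of AmcKO, whereas MUT and GcKO are numbered 1 to 3. A batch that followed these numbers and the genotype cannot be told apart for MUT or GcKO against either WT or AmcKO. Nothing in the labels says whether libraries of a group came from different females, so the p-values measure the spread between these libraries.

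Mouse oocytes lose their centrioles during their growth and build the meiotic spindle without centrosomes. After the nuclear envelope breaks down, the small GTPase Ran, loaded with GTP near chromosomes, frees spindle factors such as TPX2 from importins. TPX2 activates Aurora kinase A (Aurka), Bora lets Aurora A activate Polo-like kinase 1 (Plk1), and both kinases act on acentriolar microtubule organizing centres. TACC3, a substrate of Aurora A, brings the microtubule polymerase CKAP5 to spindle microtubules. The motor KIF11 slides antiparallel microtubules apart to make the spindle bipolar, and NuMA (Numa1) focuses its poles. A GV oocyte stores such transcripts for later use, and a transcript level gives neither the translation nor the activity of the protein.

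FPKM values sum to different totals. In kiloFPKM, WT libraries summed to between 1167 and 1226 and AmcKO libraries to between 883 and 1108, whereas the totals of MUT lay between 590 and 612 and those of GcKO between 482 and 684. Depth is unknown, since no counts were used here. Judged by the steps between low values, and with MUT replicate 2 set to 1, a single fragment was worth between 2.28 and 2.66 in WT, up to 1.21 in the other MUT libraries, between 0.901 and 1.499 in GcKO and between 1.21 and 1.499 in AmcKO. Low transcripts are therefore less precise in WT. Dpagt1 itself had values of 0 in all 3 WT and all 3 AmcKO libraries, of 0.88, 0.41 and 0.98 FPKM in MUT and of 0, 0.37 and 0 FPKM in GcKO, so it could not check the labels. Of 10 granulosa and cumulus cell markers, Amh, Amhr2 and Foxl2 were listed at 0 in all 12 libraries, and the others were above 0 in some library. Cyp19a1 was present in all 12 libraries, at 6.70 to 20.9 FPKM, and made up most of the summed level of the list. In FPKM, the summed level of the list lay between 15.8 and 21.5 in WT, between 12.2 and 20.9 in MUT, between 11.7 and 25.7 in GcKO and between 10.6 and 21.6 in AmcKO, and 1 marker of the list, Inha, was called higher in MUT. The summed level of 10 oocyte markers was highest in WT, between 15752 and 17547 FPKM, and lay between 8587 and 9799 in MUT, between 7737 and 10823 in GcKO and between 11473 and 13049 in AmcKO. The FPKM totals of all genes given above were also highest in WT, and the marker sums are not shares of these totals. Of the 10 oocyte markers, 4 were called lower in MUT and 3 in GcKO, beside 11.3% and 11.4% of all tested genes. Whether these shifts bear on the results below was not tested. Theca and stroma markers summed to at most 5.11 FPKM and blood cell markers to at most 2.91 FPKM in any library. Dcn, the only theca and stroma marker tested, was called lower in MUT than in WT (log2 fold change -1.56).

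Promoter sequence is shown for Plk1, Tacc3 and Ran, the 3 members called in MUT against WT, and for Aurka, the kinase that activates Plk1, which was not called. Each stretch of 150 bases lies upstream of the transcription start in RefSeq (GRCm38.p6) and reads 5′ to 3′ on the gene's strand, with every CCAAT box (CCAAT, or ATTGG on the other strand), a site typical of genes read late in the cell cycle, in capitals. Aurka is taken from chr2:172370571-172370720 on the reverse strand. The other 3 stretches are on the forward strand, Plk1 from chr7:122159285-122159434, Tacc3 from chr5:33657978-33658127 and Ran from chr5:129019919-129020068. The stretch of Ran ends 88 bases before its RefSeq start, because a GENCODE transcript begins there.
Aurka: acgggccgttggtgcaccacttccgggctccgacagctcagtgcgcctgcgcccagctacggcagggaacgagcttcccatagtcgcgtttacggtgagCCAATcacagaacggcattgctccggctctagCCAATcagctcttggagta
Plk1: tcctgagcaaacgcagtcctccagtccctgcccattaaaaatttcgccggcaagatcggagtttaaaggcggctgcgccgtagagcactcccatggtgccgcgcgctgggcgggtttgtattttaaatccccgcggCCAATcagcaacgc
Tacc3: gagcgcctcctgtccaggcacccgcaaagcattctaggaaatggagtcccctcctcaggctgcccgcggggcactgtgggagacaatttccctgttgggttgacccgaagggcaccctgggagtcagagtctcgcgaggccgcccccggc
Ran: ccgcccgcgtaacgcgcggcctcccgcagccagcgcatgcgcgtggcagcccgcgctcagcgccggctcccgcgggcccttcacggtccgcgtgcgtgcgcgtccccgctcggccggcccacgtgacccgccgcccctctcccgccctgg

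Aurka held CCAAT boxes 51 and 19 bases before its start and Plk1 held a CCAAT box 14 bases before its start. Within the RefSeq window of 300 bases, which also takes in the bases just after the start, both kinases also held the letters of the cell cycle homology region CHR (TTTGAA, or TTCAAA on the other strand), 33 bases after the start in Aurka and 31 bases after it in Plk1. Of the 7 members with a RefSeq promoter, Aurka, Plk1, Ckap5 and Kif11 held both motifs, and Tacc3, Numa1 and Ran held neither. The share of all 32851 promoters with the letters was 17.9% for CHR and 37.4% for the CCAAT box. The motifs do not overlap each other. A match of letters describes the sequence and is not a measured binding site. The stretch shown for Ran was 82.0% G and C, against 61.3% for Aurka, 58.0% for Plk1 and 66.0% for Tacc3.

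In WT oocytes the members spanned more than 2 orders of magnitude in FPKM, a level per transcript length. Tacc3 was the most abundant at 290 ± 30.3 FPKM (SD, n = 3) and stood above 95.5% of tested genes. It was followed by Aurka at 65.2 ± 21.2, Ran at 46.4 ± 6.13, Tpx2 at 12.1 ± 1.33, Plk1 at 11.3 ± 0.665, Ckap5 at 9.35 ± 1.25, Bora at 9.15 ± 3.39, Kif11 at 2.38 ± 0.695 and Numa1 at 0.849 ± 0.440 FPKM. Ranges overlapped between the neighbours Aurka and Ran, Tpx2 and Plk1, and Ckap5 and Bora, whereas the other neighbours in this order did not overlap. In MUT oocytes the mean of Ran, at 18.0 ± 2.40 FPKM, lay behind those of Plk1 and Tpx2, although both of their ranges overlapped that of Ran. In GcKO and AmcKO oocytes, Tacc3, Aurka and Ran kept the first 3 places in that order. The values of every library are shown in the plot of the members by group.

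**Figure D1:**
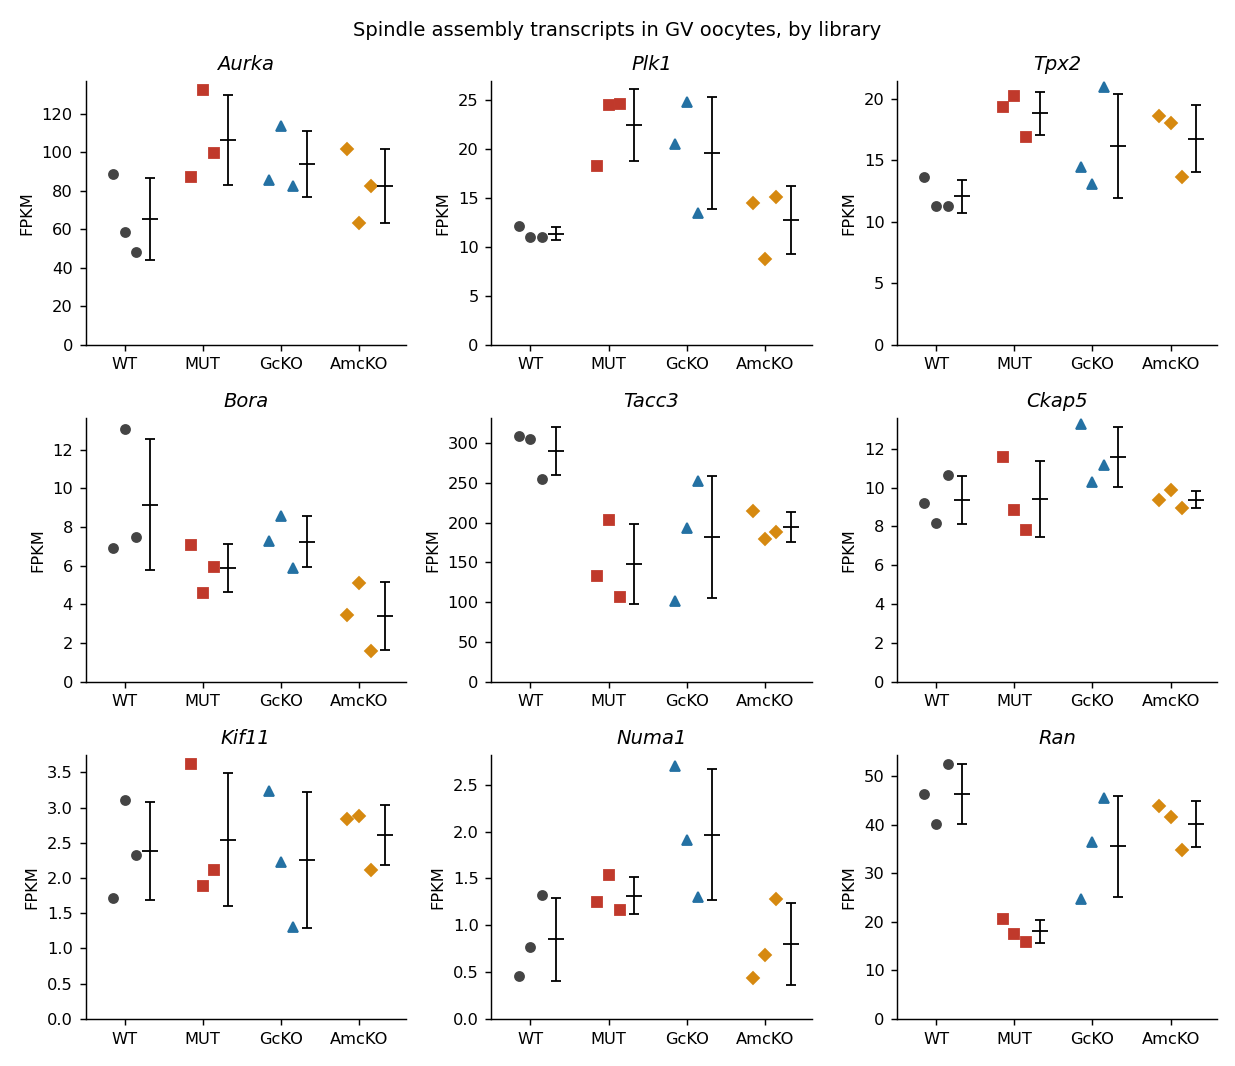
FPKM (vertical axes, starting at 0) of the 9 members in each of the 12 libraries, with 1 point per library, 3 libraries in each of WT, MUT, GcKO and AmcKO, and the mean ± SD as a bar beside the points. Ran in MUT lies between 16.0 and 20.7 FPKM, below all other libraries, and Plk1 in MUT lies between 18.2 and 24.5 FPKM, above the WT libraries at 10.9 to 12.1.

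Between MUT and WT, Plk1 was higher and Ran and Tacc3 were lower past the threshold of an adjusted p of 0.05 in limma, fitted to log2(FPKM + 1) of all 12 libraries with Benjamini-Hochberg adjustment over 11233 genes. Thus 1 of 9 members was called higher, while 9.46% of all tested genes were, and 2 of 9 were called lower, while 11.3% of tested genes were. The median change of the members was 0.06 on the log2 scale, against 0.12 for all tested genes. The members' counts are close to these shares, so they are no result about the group as a whole. All values are relative amounts within a library, so a smaller share of the RNA and less RNA per oocyte cannot be told apart.

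Aurka, the kinase that organizes the acentriolar spindle poles, was at 89.0, 58.5 and 48.2 FPKM in WT and at 87.4, 133 and 99.96 FPKM in MUT. The lowest MUT library lay just under the highest WT library, so the groups overlapped. Its log2 fold change was 0.73 (SE 0.25), short of the threshold at an adjusted p of 0.0524 in limma. It passed without WT replicate 4 (0.97, adjusted p = 0.0167), with quantile normalization (1.15, adjusted p = 0.0076), under the same sum (1.71, adjusted p = 3.7e-04) and among genes with a mean of at least 5 FPKM (adjusted p = 0.0290). In GcKO, Aurka was at 85.7, 114 and 82.8 FPKM (log2 fold change 0.55, adjusted p = 0.132 in limma), and in AmcKO at 102, 63.2 and 82.4 FPKM (0.35, adjusted p = 0.510). All of these ranges overlapped with WT. In GcKO it passed without WT replicate 4 (0.80, adjusted p = 0.0398), with quantile normalization (1.02, adjusted p = 0.0163) and under the same sum (1.58, adjusted p = 5.7e-04).

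Plk1, the Polo-like kinase needed for entry into meiotic division and for bipolar spindles, was at 12.1, 10.9 and 10.9 FPKM in WT and at 18.2, 24.4 and 24.5 FPKM in MUT. Every MUT library was above every WT library. The log2 fold change was 0.91 (SE 0.26, 95% interval 0.36 to 1.47), or 1.88-fold, with an adjusted p of 0.0227 in limma. The call was lost without WT replicate 5 or 6 or MUT replicate 2 or 3, with an adjusted p up to 0.0825 in limma. In GcKO, Plk1 was at 20.5, 24.8 and 13.4 FPKM, again with no overlap with WT, but the change of 0.70 (SE 0.26) did not pass (adjusted p = 0.0718 in limma). It passed without GcKO replicate 3 (0.94, adjusted p = 0.0222), under the same sum (1.67, adjusted p = 0.0011) and at a mean of at least 5 FPKM (adjusted p = 0.0372). In AmcKO it was at 14.4, 8.76 and 15.0 FPKM, on both sides of the WT values (0.12, adjusted p = 0.860). Reads of Plk1 can be shared as well, since 10.9% of its 50-base stretches occur in transcripts of other genes. Plk-ps1 shares 6.84% of them and Gm44985 shares 5.07%, and no value was used here for either. The part of shared reads in the difference in Plk1 was not tested.

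Tpx2, the Ran-regulated activator of Aurora A, was at 13.6, 11.3 and 11.3 FPKM in WT and at 19.3, 20.2 and 16.9 FPKM in MUT. The groups did not overlap, and the log2 fold change of 0.60 (SE 0.22) missed the threshold (adjusted p = 0.0661 in limma), which it passed with only both groups in the fit (adjusted p = 0.0324), at a mean of at least 5 FPKM (adjusted p = 0.0338) and under the same sum (1.53, adjusted p = 2.3e-04). In GcKO, Tpx2 was at 14.5, 13.04 and 20.9 FPKM (0.37, adjusted p = 0.256), and in AmcKO at 18.6, 18.0 and 13.6 FPKM (0.43, adjusted p = 0.349). Both ranges touched or overlapped that of WT.

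Bora, the cofactor through which Aurora A switches on Plk1, was at 6.93, 13.1 and 7.46 FPKM in WT, 7.09, 4.598 and 5.96 FPKM in MUT and 7.27, 8.57 and 5.91 FPKM in GcKO, and both altered groups overlapped WT (log2 fold changes -0.53 and -0.26, adjusted p = 0.294 and 0.621 in limma). In AmcKO, Bora was at 3.44, 5.11 and 1.59 FPKM, below every library of WT. Its log2 fold change of -1.25 (SE 0.34, 95% interval -1.97 to -0.52) had an unadjusted p of 0.0024 and an adjusted p of 0.134 in limma, and was not called. Under the alternatives in scaling, filter and pseudocount, its adjusted p ranged from 0.0836 to 0.209.

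Tacc3, whose protein stabilizes spindle microtubules once Aurora A has phosphorylated it, was at 309, 306 and 255 FPKM in WT and at 133, 204 and 107 FPKM in MUT. Every MUT library was below every WT library. The log2 fold change was -1.01 (SE 0.29, 95% interval -1.63 to -0.39), or 2.02-fold lower, with an adjusted p of 0.0237 in limma. The call was lost without WT replicate 4 or 5 or MUT replicate 1 or 3, with an adjusted p up to 0.108 in limma, and it was lost where libraries were brought to the same FPKM sum (-0.02) or quantile normalized (-0.39). In GcKO, Tacc3 was at 101, 193 and 253 FPKM, spread over more than a 2-fold range under the lowest WT library (-0.76, adjusted p = 0.0798 in limma), with the opposite sign under the same sum (0.27). Single libraries moved it, to -0.39 without GcKO replicate 1 (adjusted p = 0.322) and to -1.04, then called, without GcKO replicate 3 (adjusted p = 0.0203). It was also called at a mean of at least 5 FPKM (adjusted p = 0.0457) and with the length correction (-0.90, adjusted p = 0.0476), and was near 0 with quantile normalization (-0.055). In AmcKO, its values of 215, 180 and 189 FPKM also lay below WT (-0.57, adjusted p = 0.351). Tmem129, whose transcripts share 8.86% of the 50-base stretches of Tacc3, was at no more than 1.82 FPKM in any library.

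Ckap5, the microtubule polymerase recruited by TACC3, was at 9.22, 8.17 and 10.7 FPKM in WT, 11.6, 8.86 and 7.80 FPKM in MUT, 13.3, 10.3 and 11.2 FPKM in GcKO and 9.35, 9.85 and 8.96 FPKM in AmcKO. Its log2 fold change from WT was 0.00 (95% interval -0.46 to 0.46) in MUT and 0.28 (-0.18 to 0.75) in GcKO, and all groups overlapped WT. Under the same sum it stood at 0.90 in MUT and 1.23 in GcKO, and was called higher in both (adjusted p = 0.0118 and 0.0019 in limma). Kif11, the sliding motor, was between 1.31 and 3.62 FPKM in all 12 libraries, with overlap between all groups and log2 fold changes from WT of 0.06, -0.08 and 0.11 in MUT, GcKO and AmcKO. Of its 50-base stretches, 2.68% also occur in transcripts of other genes.

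Numa1, the pole-focusing factor, was the lowest of the members, at 0.454, 0.770 and 1.32 FPKM in WT, 1.25, 1.54 and 1.16 FPKM in MUT, 2.70, 1.91 and 1.30 FPKM in GcKO and 0.433, 0.679 and 1.28 FPKM in AmcKO. The GcKO values reached the highest level, but their lowest library lay under the highest WT library. The log2 fold change of 0.68 (SE 0.32) in GcKO had an adjusted p of 0.145 in limma. At this level a single fragment makes up a large part of a value, and the change on the log2(FPKM + 1) scale understates a fold.

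Ran, the GTPase whose GTP-bound form marks the chromosomes, was at 46.4, 40.2 and 52.5 FPKM in WT and at 20.7, 17.5 and 16.0 FPKM in MUT. The 3 MUT libraries lay below all libraries of the other groups, the nearest of which was GcKO replicate 1 at 24.8 FPKM. The log2 fold change from WT was -1.31 (SE 0.22, 95% interval -1.79 to -0.84), or 2.49-fold lower, with an adjusted p of 0.0010 in limma. Leaving out any 1 of the 6 libraries kept the call, with an adjusted p between 0.0027 and 0.0073. Scaled to the same FPKM sum, the change was -0.35 (adjusted p = 0.132) and was not called.

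In GcKO, Ran was at 24.8, 36.5 and 45.5 FPKM, and in AmcKO at 44.0, 41.6 and 34.8 FPKM. The GcKO values were scattered from near the MUT range up into the WT range (-0.41, adjusted p = 0.213 in limma), and those of AmcKO overlapped WT (-0.20, adjusted p = 0.676). Reads of Ran can be shared with close copies, since 15.4% of its 50-base stretches occur in other transcripts, most of them in Gm13461, for which no value was used here. Rasl2-9, a close relative of Ran, shares 1.22% of them. Rasl2-9 was at 52.9, 52.6 and 63.2 FPKM in WT, 30.4, 16.6 and 14.4 in MUT, 28.7, 27.9 and 28.7 in GcKO and 19.2, 46.9 and 23.4 in AmcKO. It was called lower in MUT (-1.48, adjusted p = 0.0040 in limma) and in GcKO (-0.95, adjusted p = 0.0413), and was not called in AmcKO (-0.99, adjusted p = 0.163). Under the same sum its changes in MUT and GcKO were -0.52 and 0.06, and neither was called. The part of shared reads in the difference in Ran was not tested.

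**Figure D2:**
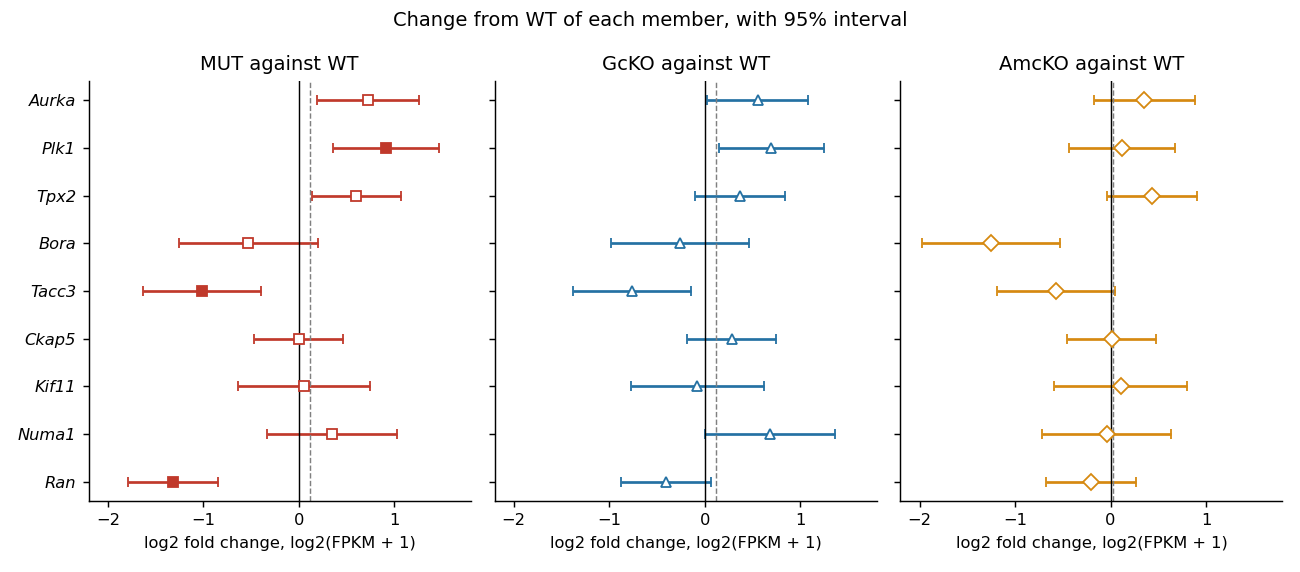
Log2 fold change from WT (horizontal axes, log2(FPKM + 1) scale) of the 9 members in MUT, GcKO and AmcKO, with 95% intervals from limma; filled symbols passed an adjusted p of 0.05, and the dashed line is the median of all tested genes. Filled symbols are found in MUT only, for Plk1 at 0.91, Tacc3 at -1.01 and Ran at -1.31.

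In GcKO oocytes, 0 of 9 members were called by limma in either direction, while 8.71% of all tested genes were called higher and 11.4% lower. At an unadjusted p under 0.05 there were 4 members, Plk1, Aurka and Numa1 with higher and Tacc3 with lower values. At this looser cutoff, 48 of the 97 further spindle genes described below also passed. The share of all tested genes at this cutoff was not computed, so such counts are no result about the members. In AmcKO, 0 of 9 were called, with background shares of 0.0979% higher and 0.116% lower. With an unadjusted p under 0.05 there was 1 member, Bora, beside 19 of the 97 further genes. Both comparisons share the WT libraries with that of MUT, so the resemblance of the changes cannot be taken as independent.

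The contrasts between altered groups ask whether the members differ between the alleles or, for GcKO against AmcKO, between the Cre drivers. Between GcKO and MUT, 0 of 9 members were called by limma (background 0.0712% higher and 0.134% lower). The share of all tested genes at an unadjusted p under 0.05 was not computed, so such counts are no result about members. There was 1 member at this cutoff, beside 6 of the 97 further spindle genes. The member was Ran, higher in every GcKO library than in any MUT library at a log2 fold change of 0.91 (95% interval 0.44 to 1.38, adjusted p = 0.1504 in limma). Ran was called under the same sum (0.96, adjusted p = 0.0241) and just missed with quantile normalization (1.01, adjusted p = 0.0519). For Plk1 the difference was -0.21 (95% interval -0.77 to 0.34) and for Tacc3 0.26 (-0.36 to 0.88).

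Between MUT and AmcKO, Ran was called lower at -1.11 (SE 0.22, adjusted p = 0.0085 in limma), which made 1 of 9 called lower against a background of 5.07%, and 0 of 9 called higher against 1.42%. The values of Plk1 did not overlap between MUT and AmcKO either, at a log2 fold change of 0.79 (adjusted p = 0.0896 in limma). Between GcKO and AmcKO, the 2 groups that both carry the floxed allele and a Cre, 0 of 9 members were called (background 0.668% higher and 4.79% lower). With an unadjusted p under 0.05 there were 3 members, beside 36 of the 97 further spindle genes. The share of all tested genes at this cutoff was again not computed, so this count is no result about the members. Bora was higher in every GcKO library than in any AmcKO library, at 0.99 (SE 0.34, adjusted p = 0.113 in limma). Numa1 and Plk1 were the other members, at 0.72 and 0.58 (adjusted p = 0.224 and 0.238).

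The ratio of FPKM of 2 members within a library does not change when the whole library is scaled by 1 factor. Quantile normalization and the length correction can change it, and the ratios here use the values as deposited. The pairs were chosen after the values had been seen, and their ratios are given as a description with no test. Ran to Tpx2, the GTPase to its spindle target, lay between 3.41 and 4.65 in WT, between 0.865 and 1.07 in MUT, between 1.71 and 2.80 in GcKO and between 2.30 and 2.56 in AmcKO. Transcripts of Ran thus outnumbered those of Tpx2 per length in WT, and the pair was about even in MUT.

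Tacc3 to Aurka, the substrate to its kinase, lay between 3.47 and 5.29 in WT, between 1.07 and 1.54 in MUT, between 1.18 and 3.05 in GcKO and between 2.12 and 2.84 in AmcKO. All 9 altered libraries lay below the 3 WT libraries in both of these ratios. Plk1 to Bora lay between 0.838 and 1.75 in WT, between 2.57 and 5.31 in MUT, between 2.27 and 2.89 in GcKO and between 1.71 and 9.43 in AmcKO. It was higher than in WT in every MUT and GcKO library, and AmcKO overlapped WT. Aurka to Tpx2, the kinase to its activator, lay between 4.27 and 6.54 in WT, between 4.52 and 6.56 in MUT, between 3.95 and 8.72 in GcKO and between 3.50 and 6.06 in AmcKO, with overlap between all groups. Tacc3 to Ckap5 lay between 24.0 and 37.4 in WT and lower in every other group, between 11.5 and 23.0 in MUT, between 7.61 and 22.6 in GcKO and between 18.2 and 23.0 in AmcKO.

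**Figure D3:**
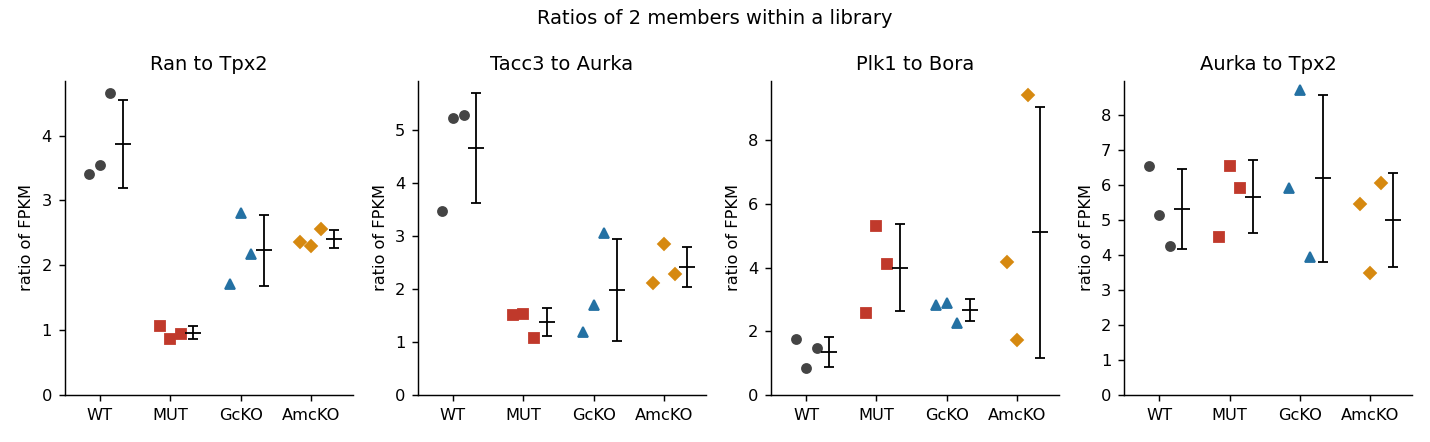
Ratio of the FPKM values of 2 members within each library (vertical axes, starting at 0), with 1 point per library and the mean ± SD beside the 3 libraries of each group. Ran to Tpx2 lies at 3.41 to 4.65 in WT and 0.865 to 1.07 in MUT, whereas Aurka to Tpx2 overlaps between all 4 groups.

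The members also differed in which other transcripts they followed. Likeness was measured as the root mean square difference of centred log2(FPKM + 1) profiles over the 12 libraries, among genes with a mean of at least 10 FPKM, so a low value means a like profile. The nearest profile to Tacc3 was that of Nlrp5, a maternal-effect gene of oocytes, at 0.158, and then Nlrp9a at 0.166. Aurka was nearest to Surf4 (0.140) and Hn1l (0.160), Plk1 to Fam46c (0.167) and Vps72 (0.169), and Ran to Sp110 (0.186) and Etv1 (0.189). Ckap5 was nearest to Cltc (0.141), the clathrin heavy chain, and Trp53inp1 (0.15).

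Tpx2 was nearest to Brd1 (0.183) and Spdl1 (0.194), Bora to Nudt9 (0.291) and Dpep3 (0.368), Kif11 to Atf2 (0.213) and Slc35a1 (0.227), and Numa1 to Trim27 (0.170) and Itsn2 (0.196). Among the members themselves, Aurka and Plk1 were the closest pair at 0.276, and Tacc3 and Ran were each other's nearest member at 0.383. Many other genes were closer than these members. Among 3420 genes, Plk1 ranked 84 for Aurka, Aurka 83 for Plk1, Ran 538 for Tacc3 and Tacc3 373 for Ran. These profiles share libraries and scale, and the distances are a description.

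The wider spindle machinery was read from 8 lists of 116 further genes, of which 97 were tested. In MUT, 11 of 97 were called higher and 13 lower by limma, beside 9.46% and 11.3% of all tested genes, with a median log2 fold change of 0.24 against 0.12 for all tested genes. In GcKO, 16 were called higher and 14 lower, beside 8.71% and 11.4% of all tested genes, with a median of 0.18 against 0.12. The split moved with the normalization. In MUT it was 11 higher and 5 lower with quantile normalization, 7 and 15 with the length correction and 60 and 1 under the same FPKM sum, and in GcKO it was 14 and 8, 6 and 16, and 60 and 3. The counts of single lists are small, so they describe those genes and do not set a list apart from these background shares. In AmcKO, 0 were called in either direction, and 19 had an unadjusted p under 0.05. Between GcKO and MUT, 0 were called and 6 had an unadjusted p under 0.05. The share of all tested genes at the unadjusted cutoff was not computed, so these counts do not set the lists apart. The counts by list are shown in the plot of called transcripts.

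**Figure D4:**
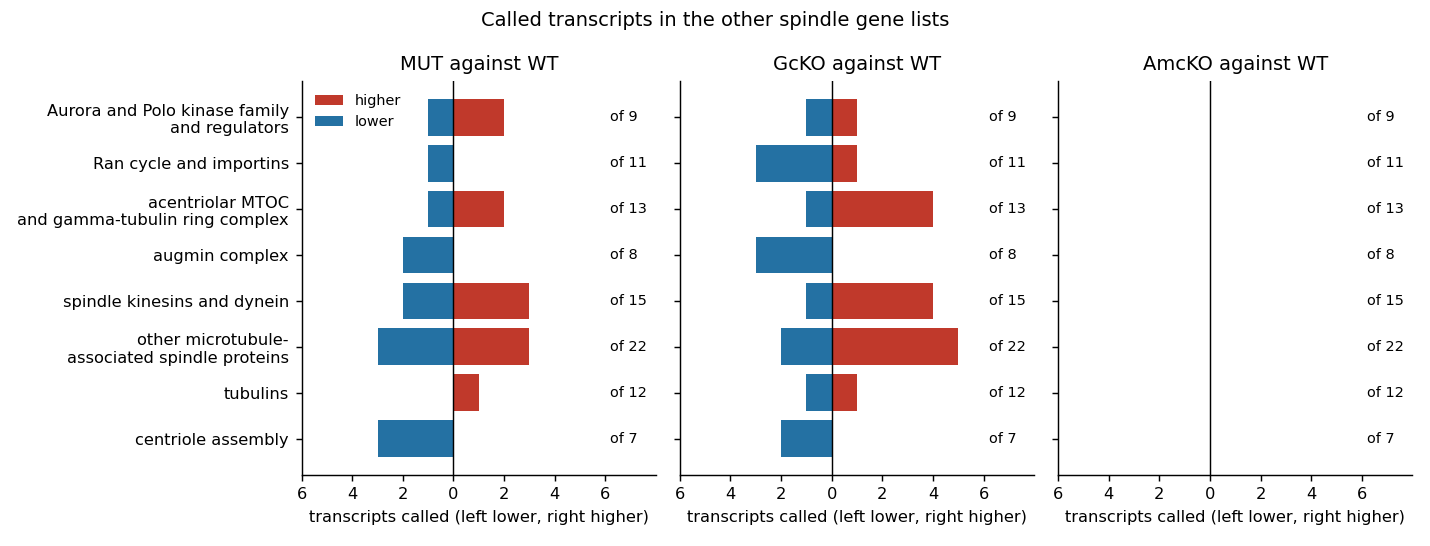
Number of transcripts called lower (bars to the left) and higher (bars to the right) than WT at an adjusted p of 0.05 in limma in each of 8 gene lists, for MUT, GcKO and AmcKO, with the number tested at the right. Calls in both directions are seen in MUT and GcKO, and AmcKO has none, whereas under an equal FPKM sum 60 of 97 genes were called higher in each of MUT and GcKO.

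Among relatives and regulators of the 2 kinases, 2 of 9 were called higher and 1 lower in MUT. Aurkb, the chromosomal passenger kinase, rose from 1.62 ± 1.44 to 4.82 ± 1.61 FPKM (log2 fold change 1.33, adjusted p = 0.0484 in limma), and Plk4, the kinase that starts centriole duplication, rose from 25.2 ± 6.56 to 50.4 ± 4.25 FPKM (1.00, adjusted p = 0.0150). Aurkc, the Aurora kinase most typical of germ cells, fell from 240 ± 39.2 to 139 ± 12.6 FPKM in MUT (-0.77, adjusted p = 0.0051) and to 132 ± 23.2 FPKM in GcKO (-0.86, adjusted p = 0.0026), but turned to 0.22 and 0.17 when libraries were scaled to the same sum. In GcKO, 1 of 9 was called higher, Ppp6r3, a subunit of the phosphatase that opposes Aurora A (0.96, adjusted p = 0.0295 in limma). This call was lost with quantile normalization and with the length correction.

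Of 11 Ran cycle and importin genes, 1 was called in MUT. Kpna2, the importin alpha that holds spindle factors such as TPX2, fell from 260 ± 19.3 to 128 ± 5.69 FPKM (-1.02, adjusted p = 0.0045 in limma), with a change of -0.03 under the same sum. In GcKO, 1 was called higher and 3 lower. Kpna2 fell to 119 ± 38.6 FPKM (-1.17, adjusted p = 0.0019) and Ranbp1, a binding protein of Ran-GTP, fell from 26.3 ± 2.69 to 12.3 ± 2.83 FPKM (-1.06, adjusted p = 0.0073). Kpnb1, importin beta, rose from 7.47 ± 2.78 to 13.8 ± 0.632 FPKM (0.85, adjusted p = 0.0259 in limma). With quantile normalization 0 genes of the list were called higher and 1 lower in GcKO, and with the length correction 0 and 3. In MUT, Ranbp1 was at 27.5 ± 6.74 FPKM (0.04, adjusted p = 0.940). Between GcKO and MUT, the difference in Ranbp1 was -1.10 and was not called (adjusted p = 0.106 in limma). Under the same sum, the change of Ranbp1 in GcKO was -0.07 and that of Kpna2 -0.14.

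Of 13 genes of acentriolar organizing centres and the gamma-tubulin ring complex, 2 were called higher and 1 lower in MUT, and 4 higher and 1 lower in GcKO. Pcnt, pericentrin, the scaffold of these centres and a partner of Aurora A, rose from 3.12 ± 0.397 FPKM to 8.02 ± 1.00 in MUT (1.13, adjusted p = 0.0081 in limma) and 9.26 ± 2.59 in GcKO (1.29, adjusted p = 0.0036). Nin, ninein, rose in MUT (0.98, adjusted p = 0.0102) and Tubg2, a gamma-tubulin, rose in GcKO (0.97, adjusted p = 0.0084). Mzt1, a small subunit of the ring complex, fell in both (-0.65 and -0.92, adjusted p = 0.0410 and 0.0069), and stood at 0.33 and 0.09 under the same sum.

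The augmin complex, which nucleates microtubules along existing ones, had 8 tested subunits, of which 2 were called lower in MUT and 3 in GcKO, beside 11.3% and 11.4% of all tested genes. Haus1 fell from 33.0 ± 10.9 FPKM to 6.15 ± 2.48 in MUT (-2.27, adjusted p = 0.0043 in limma) and 7.13 ± 4.86 in GcKO (-2.21, adjusted p = 0.0051), and was called under all 4 other normalizations tried. Haus3, at 1879 ± 133 FPKM in WT, fell to 793 ± 70.5 FPKM in MUT (-1.25, adjusted p = 3.0e-04), a call that was lost under the same sum (-0.25, adjusted p = 0.0570). Haus8 fell from 12.5 ± 1.07 to 2.98 ± 1.23 FPKM in GcKO (-1.81, adjusted p = 0.0159), a call also lost under the same sum (-0.94, adjusted p = 0.115), and was at 12.3 ± 2.68 FPKM in MUT.

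Among 15 spindle kinesins and dynein subunits, 3 were called higher and 2 lower in MUT, and 4 higher and 1 lower in GcKO. Kif22, a chromosome-arm motor, rose by 1.57 in MUT (adjusted p = 0.0057 in limma) and 1.16 in GcKO (adjusted p = 0.0286). Kif20a, a midzone motor, rose in MUT (1.14, adjusted p = 0.0139) and Kif2c, a microtubule depolymerase, rose in GcKO (1.02, adjusted p = 0.0069). Kif2a, the depolymerase of spindle poles, fell in MUT (-0.70, adjusted p = 0.0093) and GcKO (-0.52, adjusted p = 0.0437), and Dync1i2, a dynein chain, fell in MUT (-0.69, adjusted p = 0.0134). Under the same sum, the changes of Kif2a (0.27 and 0.50) and Dync1i2 (0.28) were of opposite sign.

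Of 22 other microtubule-associated proteins, 3 were called higher and 3 lower in MUT, and 5 higher and 2 lower in GcKO. Map4, a microtubule-stabilizing protein, rose from 2.92 ± 0.866 FPKM to 9.52 ± 1.36 in MUT and 9.48 ± 0.882 in GcKO (both 1.44, adjusted p = 0.0030 and 0.0029 in limma). Tacc2, of the same family as Tacc3, rose from 5.82 ± 1.29 FPKM to 11.2 ± 1.54 in MUT (0.85, adjusted p = 0.0376 in limma) and 13.9 ± 5.30 in GcKO (1.08, adjusted p = 0.0113). The values of Tacc3 were lower than in WT in both groups, and its change in GcKO was not called. With the length correction, 1 gene of the list was called higher and 3 lower in each of MUT and GcKO. With quantile normalization these counts were 3 and 1 in MUT and 4 and 1 in GcKO. Nusap1, which bundles microtubules near chromosomes and is regulated by Ran, fell from 195 ± 12.01 FPKM to 79.3 ± 5.87 in MUT (-1.29, adjusted p = 1.8e-04) and 86.3 ± 10.8 in GcKO (-1.17, adjusted p = 3.1e-04). Under the same sum neither call of Nusap1 was kept (-0.30 and -0.14, adjusted p = 0.0886 and 0.415). Stmn1, which destabilizes microtubules, fell by 1.04 and 0.99 on the log2 scale (adjusted p = 3.2e-04 and 4.4e-04), with values of -0.05 and 0.04 under the same sum.

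Of 12 tubulins tested, Tubb3 alone was called higher, in MUT (1.16, adjusted p = 0.0079 in limma) and GcKO (0.94, adjusted p = 0.0237), and Tuba3b was called lower in GcKO (-0.96, adjusted p = 0.0158), with 0.03 under the same sum. Reads of tubulins may be shared between their close copies. Among 7 centriole assembly genes, 3 were called lower in MUT and 2 in GcKO. Cetn2, centrin, fell from 981 ± 98.4 FPKM to 401 ± 13.9 in MUT (-1.29, adjusted p = 4.5e-04) and 373 ± 80.9 in GcKO (-1.41, adjusted p = 2.5e-04). Under the same sum the call of Cetn2 was lost in MUT (-0.29, adjusted p = 0.0686) and held in GcKO (-0.37, adjusted p = 0.0233). Sass6, the cartwheel protein, fell in MUT (-1.11, adjusted p = 0.0195), with -0.33 and no call under the same sum, and Cetn3, another centrin, fell in GcKO (-0.96, adjusted p = 0.0028), with 0.07 under the same sum.

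The scale between libraries sets where 0 lies for all of these changes. Bringing all libraries to an equal FPKM sum raised the median change of all tested genes from 0.12 to 0.71 in MUT and from 0.12 to 0.74 in GcKO, and the members moved with it. Plk1 then stood at 1.84 in MUT (adjusted p = 6.3e-04 in limma), Aurka at 1.71, Tpx2 at 1.53, Tacc3 at -0.02 and Ran at -0.35. Relative to the median of all genes, Plk1 was at 0.79 as deposited and 1.13 under the same sum, Tacc3 at -1.14 and -0.74, and Ran at -1.44 and -1.07. In GcKO, Ran had the opposite sign under the same sum (0.61, adjusted p = 0.0149), while it lay at -0.53 and -0.14 relative to the median. With this scaling, 4 members were called higher in MUT and 6 in GcKO, and 60 of the 97 further spindle genes in each.

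**Figure D5:**
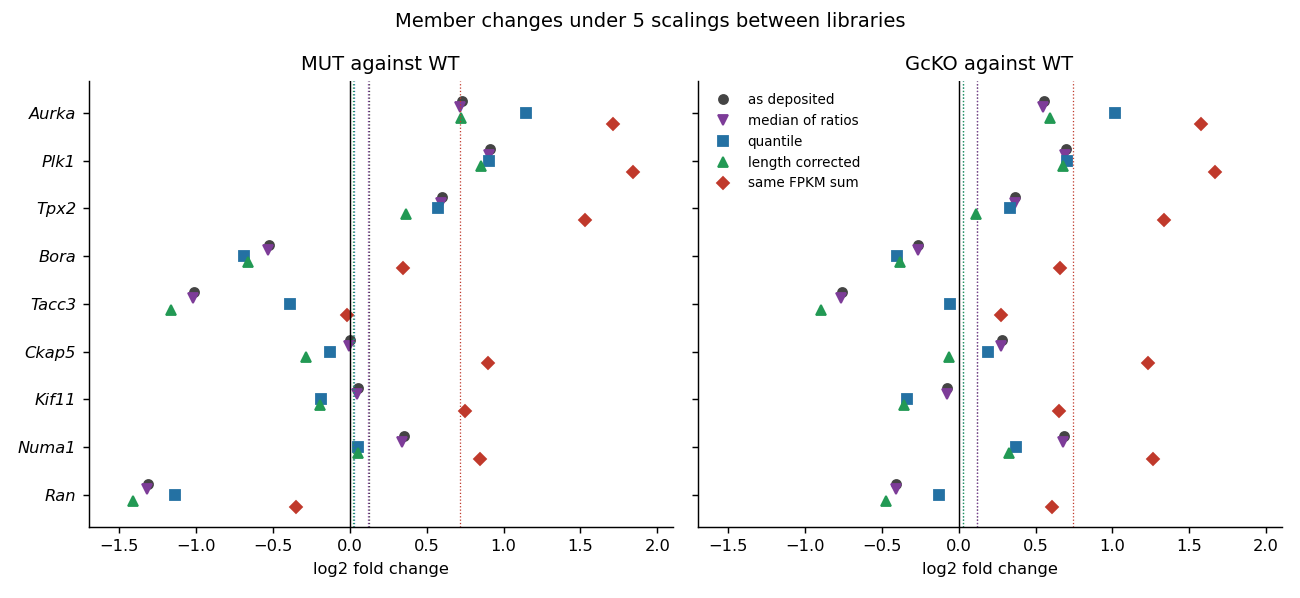
Log2 fold change of the 9 members from WT (horizontal axes) in MUT and GcKO under 5 ways of scaling the libraries, with dotted lines in the same colours at the median of all tested genes. Ran and Tacc3 lie left of the median line of each scaling in MUT, and the same-sum values (diamonds) lie to the right of the others throughout.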

How the data were processed

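The submitters' processing notes name mm10, TopHat2 2.0.13 and Cufflinks 2.2.1. The authors deposited 1 FPKM value per gene and library for 24255 genes. The gene annotation is not given in the sources used here. Columns with the authors' own comparisons (fold changes, p and q) were left out.

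Groups came from the labels. Genes with at least 1 FPKM in at least 1 library (11233) entered limma 3.58.1 (R 4.3.3) as log2(FPKM + 1). The prior variance followed the mean level, with 12 libraries in 1 fit with 8 residual degrees of freedom and 6 two-sided contrasts. Calls were made at a Benjamini-Hochberg adjusted p under 0.05 over all tested genes. Members and lists were chosen with earlier results of these data known. Named were all members, Dpagt1, Rasl2-9, up to 2 called rises and 2 called falls per list and contrast against WT, and the 2 nearest profiles per member. The fit was first tested on simulated data with known changes. Promoters are from RefSeq (GRCm38.p6) and shared stretches of 50 bases from GENCODE M21 transcripts. Tables and plots used Python 3.11.15 with pandas 2.3.3 and matplotlib 3.10.9. Alternatives changed the pseudocount, filter, scaling, fitted groups, fold threshold, replicate block and libraries left out.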

Additional observations from a re-analysis of the deposited data

Results flagged for a closer look

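The direct comparison of Ran between MUT and AmcKO passed its test at a log2 fold change of -1.11 (adjusted p = 0.0085 in limma). Ran was at 16.0 to 20.7 FPKM in MUT and 34.8 to 44.0 FPKM in AmcKO, lower in 3 of 3 MUT libraries. Leaving out any 1 of the 6 libraries kept the call (adjusted p = 0.0137 to 0.0451), and scaling to the same FPKM sum lost it (-0.44, adjusted p = 0.0923). MUT libraries are numbered 1 to 3 and AmcKO libraries 4 to 6, so a batch behind that numbering and the genotype cannot be told apart.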

How the results depend on the processing

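Counts of called members depended most on how libraries were scaled. With the same FPKM sum, members called higher numbered 4 in MUT against WT, 6 in GcKO against WT, 1 in GcKO against MUT, 6 in GcKO against AmcKO and 4 in MUT against AmcKO, and members called lower numbered 0 in MUT against WT and 0 in MUT against AmcKO. With a mean of at least 5 FPKM, 3 were called higher in MUT against WT, 1 in GcKO against WT and 1 in MUT against AmcKO, and 1 lower in GcKO against WT. Quantile normalization gave 2 higher and 1 lower in MUT against WT and 1 higher in GcKO against WT. Fitting only the 2 groups gave 2 higher in MUT against WT, requiring more than a 2-fold change gave 0, and a correction for transcript length, chosen after seeing the data, gave 1 lower in GcKO against WT.

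Signs turned with the same sum for Bora (0.34) and Ckap5 (0.90) in MUT, for Bora (0.66), Tacc3 (0.27), Kif11 (0.65) and Ran (0.61) in GcKO, and for Numa1 (0.084) and Ran (0.086) in AmcKO. They turned with quantile normalization for Kif11 in MUT (-0.19) and Ckap5 in AmcKO (-0.030), with the length correction for Kif11 in MUT (-0.20), Ckap5 in GcKO (-0.062) and Ckap5 and Kif11 in AmcKO (-0.15 and -0.022), and with median-of-ratios scaling for Ckap5 in AmcKO (-0.0046). The cause was not tested.

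Leaving out 1 library at a time gave 0 to 2 members called higher and 1 to 2 lower in MUT against WT, 0 to 1 higher and 0 to 1 lower in GcKO against WT, and 0 to 1 higher in GcKO against MUT. Log2 fold changes then ranged over both signs for Ckap5 (-0.15 to 0.11) and Kif11 (-0.15 to 0.20) in MUT, Kif11 in GcKO (-0.29 to 0.15), and Plk1 (-0.0048 to 0.35), Ckap5 (-0.072 to 0.10), Kif11 (-0.04 to 0.26) and Numa1 (-0.23 to 0.14) in AmcKO. Same-numbered libraries did not deviate together (correlations -0.041 to 0.041), and with a replicate block, 0 members were called in AmcKO against WT or GcKO against MUT. Depth is unknown, which limits Numa1 and Kif11 most.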
